A study of Mus musculus with 9 samples.

Results

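Cortical neurons of the mouse were compared with the same kind of neuron culture after cortical precursors had been grown on it for 1 day. The comparison rests on 6 of the 9 arrays of the series, 3 of the co-culture and 3 of neurons alone, chosen by their titles. Arrays of precursors alone, 3 in number, served to find out which genes were high in neurons. They also entered the estimate of the spread and the shares and predicted levels described below. Per the labels, all cells came from wild-type CD1 embryos. Neurons came from embryos of day 16 and spent 5 days in culture (one label says 4 days), and precursors came from embryos of day 13 and spent 1 day. In the co-culture the neurons had 4 days alone before the precursors were added. Both groups compared therefore hold embryonic day 16 neurons of about the same age in culture, and they differ in the precursors and in whatever the precursors carry with them. A dissociated cortex is a mixed culture, and the labels name no sorting of the cells. The series concerns growth factor signals between the 2 cell types. Replicates are called biological, and p-values rest on the spread between 3 of them per group, estimated jointly over the 3 groups.

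Neurons of this age build synapses: they make receptors for the transmitters glutamate and GABA, the channels that carry action potentials, and the machinery of transmitter release. Immediate early genes such as Fos, Npas4 and the Nr4a family are transcription factor genes that electrical activity and other stimuli switch on within minutes. Precursors, in contrast, divide and give rise to new neurons. RNA of a co-culture is a mixture, so a gene used by the neurons alone is diluted when precursor RNA is added. Fewer neurons, less RNA per neuron and changed expression in either cell type cannot be told apart.

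Levels below are log2 RMA values, in which a difference of 1 is a factor of 2, and differences are co-culture minus neurons unless stated. Of 22180 genes with a named probe set, 13012 were above the array median in at least 3 arrays and were tested. Over all probe sets, neuron arrays correlated with each other at 0.988 to 0.993 and co-culture arrays at 0.993 to 0.994, and arrays of the 2 groups at 0.972 to 0.978. The co-culture arrays gave the same value, within 0.001, in all 3 replicates for 181 tested genes (1.39%), against 47 (0.361%) in neurons and 75 (0.576%) in precursors. Among these 181 are 44 of the 715 neuron-high genes described below (6.15%), so an SD of 0 in the co-culture marks such a gene and is no measure of how alike the cultures were. Neuron replicate 2 was the highest neuron array for several genes of dividing cells, and co-culture replicate 2 was the highest co-culture array for several genes of connective tissue and vessels, as given beside them.

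Most tested genes differed between the co-culture and neurons alone. In the co-culture 4643 of 13012 genes were higher than in neurons (35.7%) and 3236 were lower (24.9%) at an adjusted p under 0.05 (limma). These percentages are the background for the counts of every gene list below. At least 2-fold differences were fewer, with 555 genes higher (4.27%) and 297 lower (2.28%). The median difference over all tested genes was 0.032. With each array centred on the median of its tested genes, which moved that median by -0.113, 3478 genes were higher and 4925 lower; rises then made up 41.4% of the calls, against 58.9% on the deposited scale. The levels of the 2 groups did not overlap for 8506 genes (65.4%).

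The 10 largest rises were those of H1f5, Ccl3, Slc7a11, H2bc12, Nhlh1, Top2a, Snord13, Bub1, Mki67 and Kif15. The 10 largest falls were those of Sla, Rasgrf2, Ntsr1, Shisa9 and Trpc5 and of 5 loci with only a microRNA, clone or predicted gene symbol. The linker histone gene H1f5 stood at 4.64, 5.82 and 4.50 in the neuron arrays and at 9.54, 9.57 and 9.54 in the co-culture, a difference of 4.56, and Ccl3, a chemokine of macrophages and microglia, was higher by 3.89. The neuron levels of both lay at or below the array medians of 6.75 to 6.79, where a probe may measure background, so no fold is given. Histone genes have near-identical copies, whose signals a probe set may not separate. At the other end Sla, an adaptor protein of receptor signalling, was 4.04-fold lower, at 10.22, 9.98 and 9.84 in neurons and 8.0, 8.02 and 7.99 in the co-culture. Ntsr1, a neurotensin receptor of deep-layer cortical neurons, lay at 10.01, 10.21 and 9.89 in neurons and at 8.12 in all 3 co-culture arrays, 26.6% of its neuron level. Neither gene had overlapping groups.

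A gene was called neuron-high where neurons exceeded precursors at least 2-fold with an adjusted p under 0.05 (limma). That held for 715 genes (5.49%), and 624 genes (4.80%) were neuron-low by the converse rule. Among the genes at the edge, Rorb lay just inside with a 2.01-fold difference and Camk4 just outside with 1.98. The rule uses the neuron arrays that also enter the comparison with the co-culture, so the following counts describe the genes and are no independent evidence. Of the 715 neuron-high genes 714 were lower in the co-culture than in neurons, 296 of them at least 2-fold, with a median difference of -0.95. The typical neuron-high gene thus kept 51.9% of its neuron level. The exception was the probe set listed under Mir154, at 6.93, 7.98 and 7.85 in neurons and 6.85, 7.09 and 7.07 in the co-culture, with a difference of -0.58 that did not pass (adjusted p = 0.098). Against precursors, 596 of the 715 were higher in the co-culture, where 1069 of all 13012 genes were (8.22%), and 119 did not pass that test.

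Where the co-culture level of a gene lay between those of precursors and neurons is given by its neuron share. This is the excess of the co-culture over precursors, as a percentage of the excess of neurons over precursors, on the linear scale. A gene whose co-culture level equals that of precursors has a share of 0, and one at its neuron level a share of 100. Over the neuron-high genes the median share was 22.3%, 23.8% and 21.7% in the 3 co-culture arrays, a mean of 22.6% ± 1.13 (SD, n = 3). The shares lay close together. The middle 50% of genes fell between 19.0% and 26.0%, and 5% of genes lay below 13.4% and 5% above 33.4%. Among genes at least 4-fold higher in neurons, 105 in number, the share was 22.6% ± 1.18. It changed little with the level in neurons: 21.7% for the 88 genes under 8 on the log2 scale and 24.5% for the 47 genes at 11 or more. Without the genes whose co-culture values were equal the share was 22.5% ± 1.20. The neuron-low genes gave a lower share of 10.4% ± 3.11, with array values of 7.24%, 10.5% and 13.5%, all below those of the neuron-high genes. That gap depended on the scaling: with each array centred on its tested genes the shares were 18.2% and 16.6%.

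**Figure D1:**
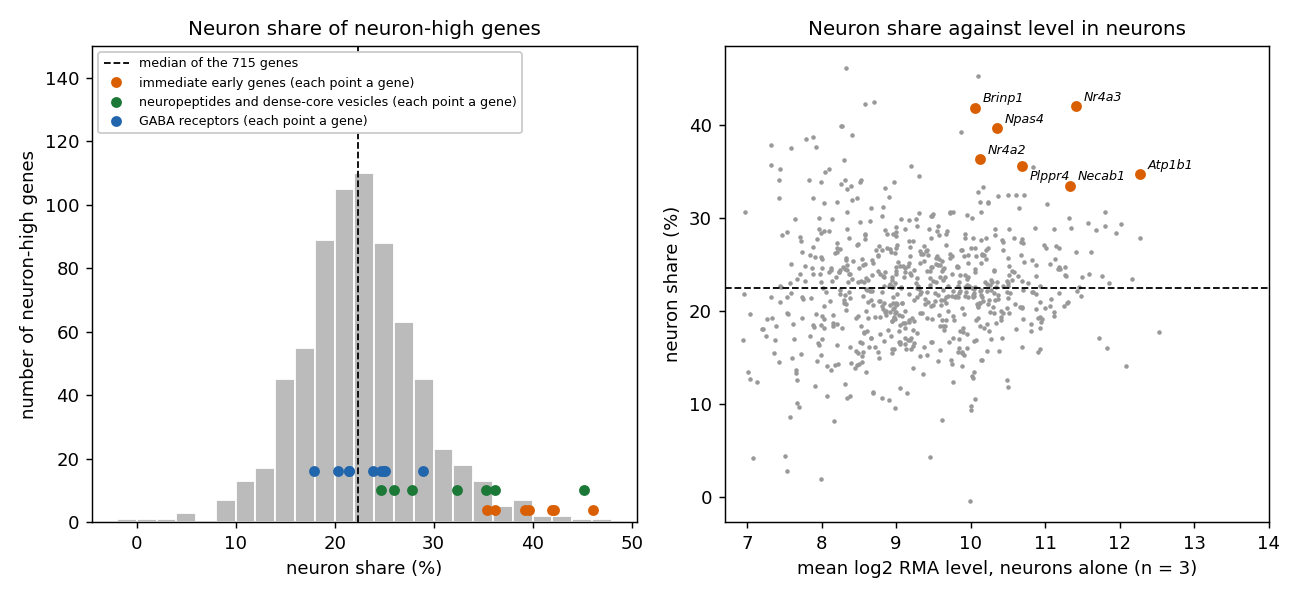
The left panel counts the 715 neuron-high genes by neuron share (%), with the shares of the immediate early, neuropeptide and GABA receptor genes among them drawn as points, at heights that carry no value. The right panel sets each gene's share against its mean log2 RMA level in neurons, with the 7 genes above the predicted level named; the dashed line in both is the median of 22.4%.

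The neuron-high immediate early genes, 7 of the 25 listed, stood near the top of the order of shares. The rest of the list was not neuron-high and has no share. All 7 neuron-high immediate early genes were among the 22 highest of 715: Fosb was first with 46.1%, Fos was at rank 4 with 42.2% and Nr4a3 at rank 5 with 42.0%, and Npas4 (39.6%), Fosl2 (39.2%), Nr4a2 (36.2%) and Nr4a1 (35.4%) followed. Their median share was 39.6%, beside 22.4% for all neuron-high genes. Fosb is one of the genes with equal co-culture values, and without such genes the highest share of a neuron-high gene was 42.4%. Over 19 other processing settings the median of these genes lay between 35.7% and 41.6% and that of all neuron-high genes between 18.1% and 22.9%. Several of these settings, those of the filter, prior, replicate block and fold, cannot change the share of a gene. The order of shares is a description, since the genes were picked out with the earlier results known and the shares of one array are not independent.

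The upstream sequence of these genes was read for the short motif TGACG on either strand (CGTCA on the other). The motif is a core of the binding sites of CREB, a transcription factor activated by calcium and cyclic AMP. The 250 bases before the RefSeq start of Npas4 and of the 3 Nr4a genes are shown, since these 4 are the most strongly neuron-high of the group. They come from RefSeq on build GRCm38.p6, 5′ to 3′ on the strand of the gene, at chr19:4989972-4990221 (minus strand) for Npas4, chr15:101266596-101266845 (plus) for Nr4a1, chr2:57124004-57124253 (minus) for Nr4a2 and chr4:48045055-48045304 (plus) for Nr4a3. Capitals mark the motif.
Npas4: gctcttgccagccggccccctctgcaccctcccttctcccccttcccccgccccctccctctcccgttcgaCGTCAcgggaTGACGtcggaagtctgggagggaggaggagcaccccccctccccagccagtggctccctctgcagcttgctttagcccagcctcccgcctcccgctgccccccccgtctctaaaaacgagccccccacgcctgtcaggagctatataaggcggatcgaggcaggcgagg
Nr4a1: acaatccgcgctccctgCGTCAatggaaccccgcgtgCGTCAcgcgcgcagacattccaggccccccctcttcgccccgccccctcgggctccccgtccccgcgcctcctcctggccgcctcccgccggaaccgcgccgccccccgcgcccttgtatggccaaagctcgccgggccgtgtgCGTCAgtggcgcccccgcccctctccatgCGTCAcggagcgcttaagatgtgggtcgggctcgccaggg
Nr4a2: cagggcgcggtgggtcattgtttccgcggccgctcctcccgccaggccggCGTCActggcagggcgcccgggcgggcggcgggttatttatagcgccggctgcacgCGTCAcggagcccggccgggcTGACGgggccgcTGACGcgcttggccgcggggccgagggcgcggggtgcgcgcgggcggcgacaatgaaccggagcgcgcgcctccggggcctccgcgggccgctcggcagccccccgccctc
Nr4a3: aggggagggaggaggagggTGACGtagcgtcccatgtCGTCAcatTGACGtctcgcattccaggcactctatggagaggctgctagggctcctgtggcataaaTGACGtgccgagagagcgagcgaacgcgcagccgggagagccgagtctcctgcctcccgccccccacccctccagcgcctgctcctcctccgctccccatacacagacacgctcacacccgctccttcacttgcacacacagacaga
Npas4 holds 2 matches and each Nr4a gene 4. Of 32851 RefSeq promoters of this length 17.8% hold at least 1 match, 3.9% at least 2 and 0.137% at least 4. Fos holds 2 matches, Fosb 1 and Fosl2 0, so 6 of the 7 neuron-high immediate early genes have at least 1. The other immediate early genes, among them those that rose, were not read. Whether the motif is less frequent in them was not tested. Atp1b1, Brinp1 and Plppr4, which also exceeded their predicted levels as given below, hold 0. The full palindrome TGACGTCA, which contains the short motif on both strands and occurs in 1.55% of promoters, was in none of the 7 windows. A match says only that the letters are there. The genes were chosen for this reading after their values were known.

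Each of these genes was nevertheless lower in the co-culture than in neurons. Npas4, a factor that couples activity to the making of inhibitory synapses, measured 10.28, 10.30 and 10.48 in neurons, 9.27 in all 3 co-culture arrays and 7.36 ± 0.090 (SD, n = 3) in precursors. Its groups did not overlap, and it kept 47.2% of its neuron level (difference -1.08, adjusted p = 5.66e-07, limma). Nr4a3, an orphan nuclear receptor, measured 11.49, 11.34 and 11.43 in neurons and 10.35, 10.48 and 10.34 in the co-culture, 49.1% of the neuron level. Its relative Nr4a2 measured 10.16, 10.07 and 10.17 in neurons and 9.02, 9.05 and 9.06 in the co-culture. Nr4a1 measured 10.87, 10.73 and 10.89, and 9.87, 9.87 and 9.86. All 3 Nr4a genes lay about 1 unit lower in every co-culture array than in every neuron array. Fos, a subunit of the transcription factor AP-1, measured 8.55, 8.61 and 8.57 in neurons and 7.86, 8.04 and 7.93 in the co-culture, and kept 64.4%. Fosb, a relative of Fos, fell by 0.52, from 8.36, 8.29 and 8.34 to 7.82 in each co-culture array.

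The immediate early list did not move one way. Of its 25 genes, all tested, 12 were lower and 7 higher, with a median of -0.21, and 15 were lower and 5 higher with each array centred on its tested genes. The list thus had 48% lower and 28% higher, beside 24.9% and 35.7% over all tested genes. The 7 that rose were Gadd45g (1.06), Btg2 (0.92), Ier2 (0.53), Jun (0.47), Egr1 (0.39), Atf3 (0.30) and Arc (0.20). Btg2, an inhibitor of proliferation that newborn neurons and neurogenic precursors also express, stood at 8.10, 8.19 and 7.99 in neurons and 8.95, 9.13 and 8.95 in the co-culture. Egr1, a zinc finger factor, stood at 8.53, 8.56 and 8.42 in neurons and 8.90, 8.95 and 8.83 in the co-culture. None of these 7 was higher in neurons than in precursors. In the co-culture their differences from precursors lay between -0.059 and 0.113, and none passed the test.

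Each neuron-high gene was then set against the level it would have at a share of 22.6%. By this test 7 of the 715 were above the predicted level (limma, adjusted p under 0.05) and 0 below, where 9 of all 13012 genes were above (0.0692%) and 0 below (0). At an unadjusted p under 0.05, 72 neuron-high genes were above and 60 below, and the smallest adjusted p below the prediction was 0.0987. In point estimates 345 genes were above and 370 below. The 7 genes were Nr4a3, Npas4, Necab1, Nr4a2, Plppr4, Brinp1 and Atp1b1. The count rests on few arrays: it was 4 without any one of the neuron replicates, 0 without precursor replicate 3, 0 without any one of the co-culture replicates, and 0 with the spread taken from the separate cultures alone, an alternative chosen after seeing the data. The departures were positive for all 7 genes under each of 20 other settings, but those of the prior, replicate block and spread cannot change a departure.

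Necab1, a neuronal calcium-binding protein, was the most neuron-specific of the 7. It measured 11.26, 11.42 and 11.33 in neurons, 9.87 in the 3 co-culture arrays and 6.76 ± 0.029 in precursors, so that its groups were far apart. It kept 36.2% of its neuron level and exceeded the prediction by 0.49 (SE 0.046, adjusted p = 0.0132, limma). Nr4a3 exceeded it by 0.61 (SE 0.079, adjusted p = 0.0342) and Npas4 by 0.55 (SE 0.057, adjusted p = 0.0132). Brinp1, a brain protein that restrains cell cycle entry, had the share at rank 6, 41.8%, with levels of 10.11, 10.02 and 10.06 in neurons and 9.38, 9.37 and 9.37 in the co-culture. Plppr4, a membrane protein of excitatory synapses, had a share of 35.6% and Atp1b1, the beta subunit of the sodium pump, one of 34.6%. Atp1b1 was at 12.26, 12.27 and 12.29 in neurons and 11.32 in all 3 co-culture arrays. Nearly equal co-culture values, with an SD of 0.00086 for Necab1 and 2.4e-05 for Atp1b1, lower the spread that the test uses. With the spread taken from the separate cultures alone, 0 of the 7 genes passed. Among the 20 settings Necab1 and Npas4 passed in 15, Brinp1 and Nr4a2 in 14, Nr4a3 in 10, Plppr4 in 9 and Atp1b1 in 7. Genes with high shares also missed the test: Fos with a departure of 0.30 (adjusted p = 0.0675), Scg2 with 0.26 (adjusted p = 0.0852), Nr4a1 with 0.30 (adjusted p = 0.147) and Fosb with 0.30 (adjusted p = 0.235).

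**Figure D2:**
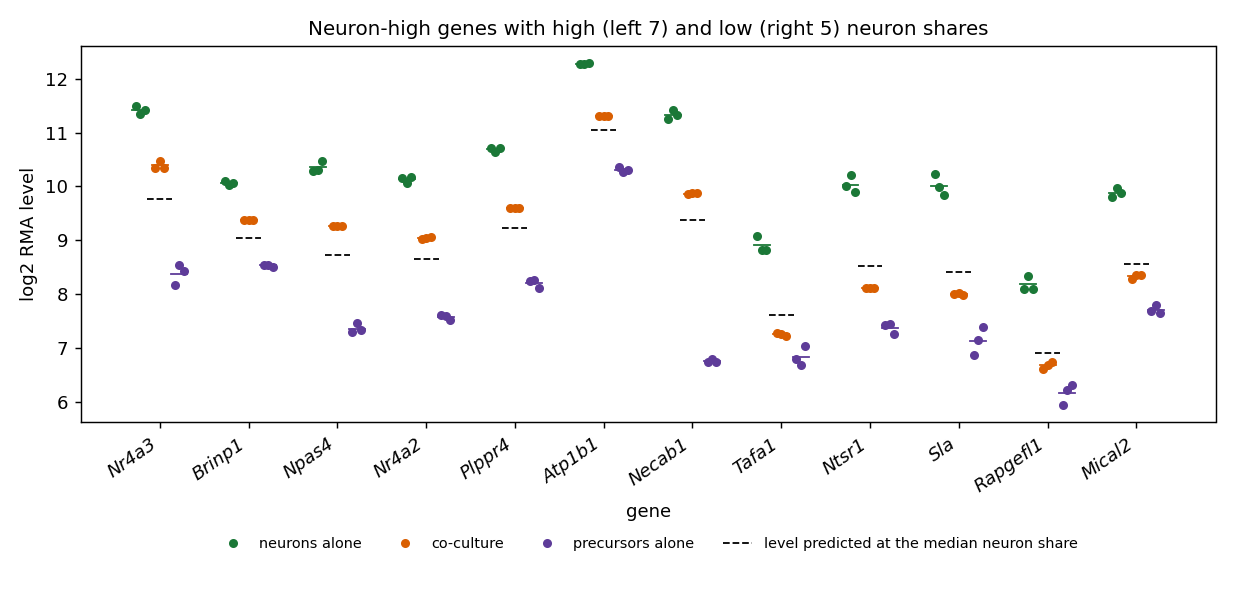
Log2 RMA levels of 12 neuron-high genes, 1 point per array and a line at each mean of 3, in neurons, co-culture and precursors. The dashes show the level predicted at the median neuron share, below the co-culture points in the 7 genes on the left (Nr4a3 to Necab1) and above them in the 5 on the right (Tafa1 to Mical2).

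No gene passed the test for a level below the prediction. The lowest shares included several loci listed only by a clone or microRNA symbol, such as CK137956 (1.9%) and Mir384 (4.2%). Among the genes at least 4-fold higher in neurons, Mir28c had the lowest share, 8.59%, and the other 9 of the lowest 10 were Tafa1, Ntsr1, Sla, Rapgefl1, Mical2, Rasgrf2, Cpne8, 1700123O21Rik and 5031426D15Rik. Tafa1, a secreted brain protein, had a share of 10.4%, Ntsr1 12.7%, Rapgefl1, a guanine nucleotide exchange factor, 14.2%, Mical2, an oxidase that acts on actin, 15.4%, and Rasgrf2, a calcium-dependent activator of Ras, 15.5%. Tafa1 measured 9.08, 8.82 and 8.82 in neurons, 7.29, 7.25 and 7.22 in the co-culture and a mean of 6.84 in precursors. Rasgrf2 measured 8.40, 8.78 and 8.49 in neurons and 6.63, 6.69 and 6.55, below the array medians, in the co-culture. For both, every co-culture array was more than 1.5 units below every neuron array. Thbs1, a matrix protein that promotes synapse formation, had the lowest share of the 715 genes, -0.42%: its co-culture levels of 9.01, 8.96 and 8.71 lay at the precursor mean of 8.90, below 9.82, 10.38 and 9.77 in neurons.

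Most genes for receptors of GABA and glutamate were lower in the co-culture. All 11 tested GABA receptor genes were lower in the co-culture, with a median of -1.27, beside 24.9% of all tested genes lower and an overall median of 0.032. Gabrb1, a subunit of the GABA-A receptor, measured 10.60, 10.45 and 10.49 in neurons and 8.84, 8.77 and 8.62 in the co-culture, and kept 29.3% of its level. Gabbr2, a subunit of the GABA-B receptor, measured 11.02, 10.98 and 10.99 in neurons and 9.42, 9.44 and 9.39 in the co-culture. The neuron-high members had shares from 17.9% (Gabra3) to 28.9% (Gabra5), and so spread on both sides of the median of all neuron-high genes.

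Of 19 glutamate receptor genes 15 were lower and 2 higher, with a median of -0.73. The metabotropic receptors Grm3 and Grm5 differed by -1.75 and -1.69. Grm3 measured 10.50 in all 3 neuron arrays and 8.73, 8.81 and 8.70 in the co-culture. Grin2b, the NMDA receptor subunit that prevails before birth, measured 10.85, 10.86 and 10.90 in neurons and 9.56, 9.58 and 9.55 in the co-culture, and the AMPA receptor subunit Gria1 10.32, 10.33 and 10.29, and 9.04, 9.04 and 9.02. Grin2a, the NMDA receptor subunit of mature synapses, was lower by 1.58 but is one of the genes with equal co-culture values (6.44 in each). That level lies below the array medians. The 2 that rose were the kainate receptor subunit Grik3 (0.55) and the NMDA receptor subunit Grin2c (0.45). Neither differed from precursors by test.

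Ion channel genes followed the same direction. Of 20 sodium and calcium channel genes 19 were lower and 0 higher (median -0.77), and of 29 potassium and HCN channel genes 24 were lower and 2 higher (median -0.56). Scn2a, a sodium channel of the axon, measured 9.89, 10.05 and 9.92 in neurons and 8.59, 8.72 and 8.57 in the co-culture. The A-type potassium channel gene Kcna4 measured 8.89, 8.99 and 9.11 in neurons and 7.62, 7.64 and 7.66 in the co-culture, with a share of 28.0%. Kcnc2, a channel of fast-spiking cells, kept less of its excess over precursors, with a share of 14.9%. Its means of 6.46 in the co-culture and 6.12 in precursors lay below the array medians, where a probe may measure background. The small-conductance channel Kcnn2 (0.38) and Kcnd3 (0.16) were the 2 that rose, and neither differed from precursors by test.

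Among 5 genes of the sodium pump and of chloride transport, 3 were lower and 2 higher (median -0.94), and the pump subunits differed in direction. Atp1b1 and Atp1b2 were lower by 0.96 and 1.09, while Atp1b3 rose from 9.69, 9.67 and 9.38 to 10.25, 10.23 and 10.09. The chloride carriers differed too. Slc12a5, which lowers chloride in mature neurons, fell by 0.94, and Slc12a2, which loads immature cells with chloride, rose by 0.43 (adjusted p = 0.00221, limma).

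At the presynaptic side 22 of 28 genes were lower and 1 was higher (median -0.72), and at the postsynaptic side 25 of 29 were lower and 3 higher (median -0.64). Rims1, a scaffold of the release site, was lower by 1.17, and Syn1, a protein that tethers synaptic vesicles, by 1.08. Snap25, a SNARE protein of vesicle fusion, measured 12.57, 12.44 and 12.55 in neurons and 11.55, 11.58 and 11.52 in the co-culture, with a share of 17.7%. Syt4, a synaptotagmin of dense-core vesicles, had a share of 31.4%. The one presynaptic gene that rose was Slc17a6, the vesicular glutamate transporter of young neurons, from 8.74, 8.79 and 8.71 to 9.40, 9.67 and 9.40. Its precursor mean was 9.33, with no difference from the co-culture by test. Postsynaptic scaffold genes were led by Dlg2 at -1.42, with levels of 9.76, 9.82 and 9.84 in neurons and 8.39, 8.39 and 8.37 in the co-culture, followed by the adhesion molecules Lrrtm2 (-1.27) and Nlgn1 (-1.24). Homer3 (0.46), Dlg1 (0.44) and Camk2d (0.22) rose, and none of them differed from precursors by test.

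Of 15 peptide and dense-core vesicle genes 11 were lower and 0 higher, and 4 did not pass (median -0.49). The 7 neuron-high members had a median share of 32.3%, with 25.7% to 33.5% over 19 other settings, several of which cannot change the share of a gene. Scg2, a granin of secretory vesicles, had the second highest share of all 715 genes, 45.2%, with 10.13, 10.02 and 10.13 in neurons and 9.61 in each co-culture array. Like Fosb, it is one of the genes with equal co-culture values. Penk, the precursor of enkephalin, measured 8.41, 8.07 and 8.41 in neurons and 7.43, 7.43 and 7.37 in the co-culture (share 36.2%). Pcsk1, a protease that cuts prohormones, had a share of 35.3%. Cck, the cholecystokinin gene, measured 9.46, 9.60 and 9.38 in neurons and 8.26, 8.31 and 8.31 in the co-culture, and its share of 24.6% was the lowest of the 7. Of 12 calcium sensor genes 7 were lower and 2 higher (median -0.39). Vsnl1, a visinin-like sensor, was lower by 1.54 (share 29.0%), and Calb2, the calretinin gene of some interneurons and early-born neurons, rose by 0.90.

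**Figure D3:**
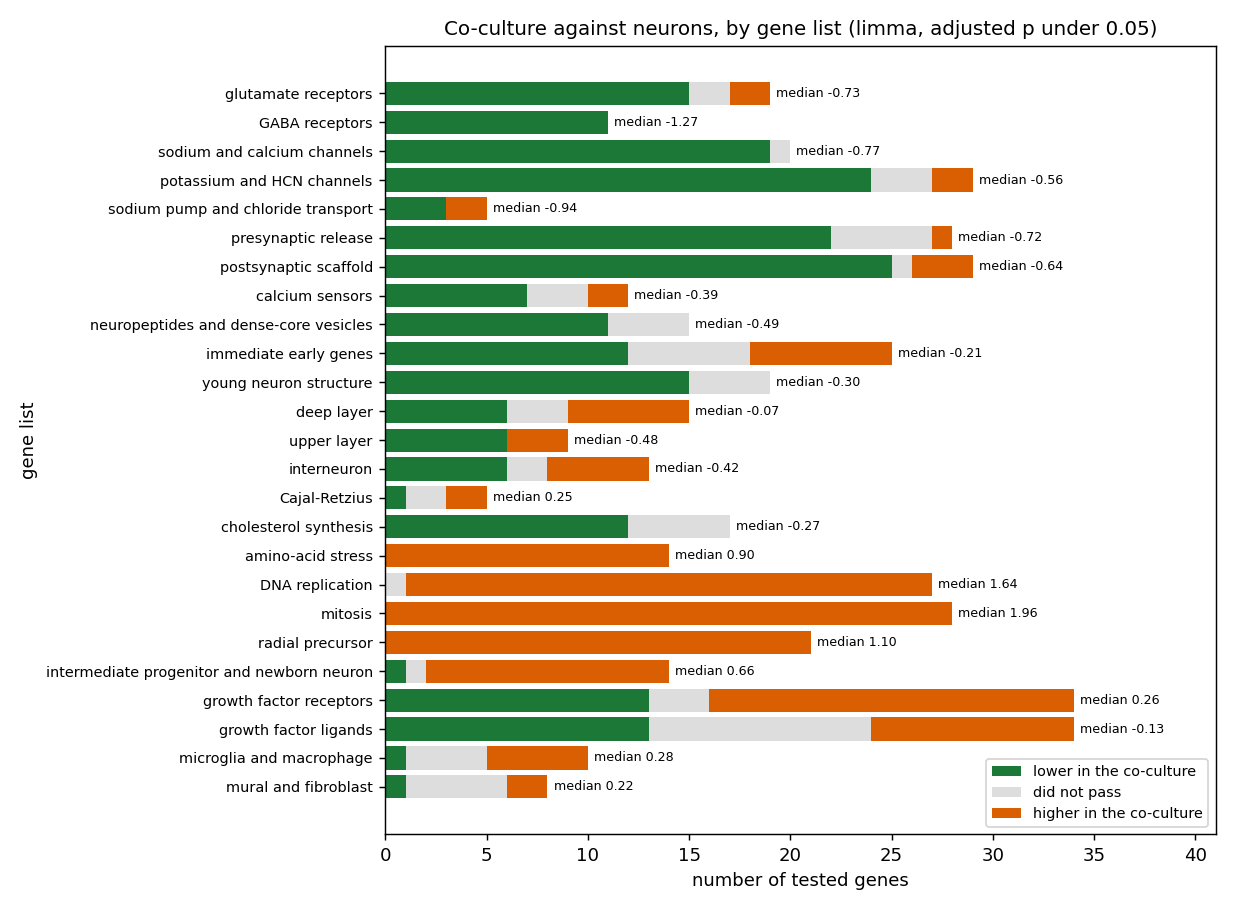
Number of tested genes of each list lower in the co-culture, higher, or not past the test (limma, adjusted p under 0.05), with the list's median log2 difference beside the bar; 25 lists of 5 or more tested genes are drawn. GABA receptors are all lower and mitosis genes all higher, while the immediate early, layer and growth factor lists are mixed.

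Of 19 structural genes of young neurons 15 were lower and 0 higher, with a median of -0.30. Their median of neurons minus precursors was 0.39, and only 3 of them, Nefl, Mapt and Gap43, were neuron-high. The neurofilament gene Nefl fell by 0.95 and Mapt, which encodes the microtubule protein tau, by 0.85. Map2, a dendritic microtubule protein, measured 12.06, 12.04 and 12.06 in neurons and 11.84, 11.82 and 11.84 in the co-culture, a fall of 0.22. Tubb3, the neuronal tubulin, measured 11.95, 11.96 and 11.95 in neurons and 11.94, 11.95 and 12 in the co-culture, a difference of 0.0097 (adjusted p = 0.856, limma) that became -0.072 after cyclic loess and -0.10 with each array centred on its tested genes.

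Of 15 deep-layer genes 6 were lower and 6 higher (median -0.069), and of 9 upper-layer genes 6 were lower and 3 higher (median -0.48), beside 24.9% lower and 35.7% higher over all tested genes. Ldb2, a cofactor of LIM proteins in deep-layer neurons, was lower by 1.57, with 10.45, 10.35 and 10.42 in neurons and 8.82, 8.84 and 8.84 in the co-culture. Tbr1, a determinant of layer 6 that newly born neurons switch on, rose from 8.86, 8.83 and 8.82 to 9.65, 9.78 and 9.68. Bcl11b, a factor of subcerebral neurons, rose by 0.38. Unc5d, a netrin receptor of upper-layer cells, fell by 0.63 with a share of 34.5%, and Rorb, a nuclear receptor of layer 4, by 0.64.

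Of 13 interneuron genes 6 were lower and 5 higher (median -0.42), and 8 were lower and 2 higher both after cyclic loess and with each array centred on its tested genes. The 5 that were higher are 38.5% of the list, near the 35.7% over all tested genes, of which 24.9% were lower. Maf, a factor of cells from the medial ganglionic eminence, fell by 1.00 and Sst, the somatostatin gene, by 0.86, while Dlx2, a factor of interneuron precursors, rose by 0.71. Gad1, an enzyme that makes GABA, fell from 8.69, 8.77 and 8.83 to 8.35 in each co-culture array. Among 5 Cajal-Retzius genes 1 was lower and 2 higher (median 0.25): Ndnf was lower by 0.86, and Ebf2 (1.19) and Calb2 rose. Reln, which these cells secrete, differed by 0.10 (adjusted p = 0.44), and by -0.011 with each array centred on its tested genes.

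Metabolic gene lists moved in opposite directions. Of 17 cholesterol synthesis genes 12 were lower in the co-culture and 0 higher (median -0.27). Mvd, a decarboxylase of the mevalonate pathway, measured 9.24, 9.25 and 9.03 in neurons and 8.39, 8.26 and 8.22 in the co-culture, beside a precursor mean of 8.28. All 14 genes of the amino-acid stress response were higher (median 0.90). Between neurons and precursors alone these genes had a median of -0.95 (neurons minus precursors), and 7 of them were neuron-low. Slc7a11, a cystine transporter, rose by 3.49, from 6.14, 6.85 and 6.16, near or below the array medians, to 10.01, 9.86 and 9.75. Shmt2, a mitochondrial enzyme that supplies one-carbon units, rose 4.21-fold.

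Genes of dividing cells and of precursors were higher in the co-culture. Among the 624 neuron-low genes all 624 were higher in the co-culture, 544 at least 2-fold, a count that the choice of genes shapes as described for neuron-high genes. All 28 mitosis genes were higher (median 1.96), 26 of 27 DNA replication genes (median 1.64) and all 21 radial precursor genes (median 1.10), where 35.7% of all tested genes were higher. Mki67, a marker of cycling cells, stood at 7.12, 7.60 and 7.22 in neurons and 10.16, 10.20 and 10.13 in the co-culture. Neuron replicate 2 was the highest neuron array for Mki67, Top2a, Mcm5, Sox2 and Slc7a11, and the differences were larger without it: that of Mki67 was 2.99 in place of 2.85. Top2a, a topoisomerase of dividing cells, rose 7.83-fold and Mcm5, a subunit of the replicative helicase, 5.79-fold. Sox2, a factor of neural stem cells, rose from 8.03, 8.37 and 7.98 to 9.92, 9.84 and 9.96, and Pax6, a factor of radial precursors, from 6.75, 6.89 and 7.32 to 8.83, 8.84 and 8.85. None of these 5 genes differed from precursors by test, with differences from -0.17 to -0.074.

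Genes of intermediate progenitors and newborn neurons rose as well, 12 of 14, with 1 lower (median 0.66). Eomes, a factor of intermediate progenitors, rose from 6.47, 6.43 and 6.72, below the array medians, to 7.66, 7.80 and 7.71. Nhlh1, a factor of newborn neurons, rose by 3.21, from 6.14, 5.74 and 6.02, all below the array medians, to 9.02, 9.45 and 9.04. The gene that fell was Neurod6 (-0.22), which maturing projection neurons express.

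**Figure D4:**
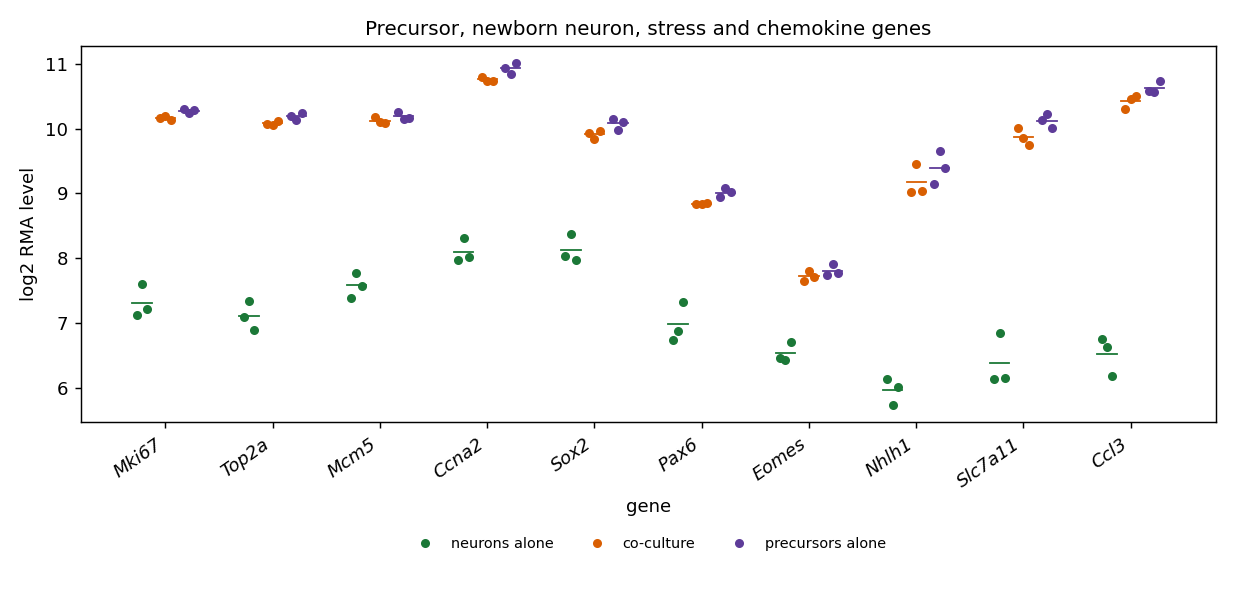
Log2 RMA levels of 10 genes of precursors, newborn neurons, stress and chemokines, with 1 point per array and a line at each mean of 3. The co-culture lies near precursors alone and far above neurons alone for all 10 genes.

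Of 34 growth factor receptors 13 were lower and 18 higher (median 0.26), beside 24.9% lower and 35.7% higher over all tested genes. Among the receptors that fell were Met, which binds hepatocyte growth factor, at 9.24, 9.34 and 9.26 in neurons and 7.96, 7.98 and 7.87 in the co-culture, and the neurotrophin receptor Ntrk2, at 10.93, 10.84 and 10.82 in neurons and 9.74, 9.74 and 9.73 in the co-culture. Erbb4, a neuregulin receptor, kept 43.6% of its neuron level. Their shares were 22.4%, 28.9% and 22.6%. The fibroblast growth factor receptors Fgfr1 and Fgfr3 rose by 1.06 and 1.09, and Fgfr1 stood at 8.99, 9.0 and 9.02 in neurons and 10.07, 10.09 and 10.05 in the co-culture. Erbb2, a receptor partner within the same family as Erbb4, rose by 0.99.

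Of 34 growth factor ligands 13 were lower and 10 higher (median -0.13), beside the same shares over all genes, and 18 were lower and 10 higher with each array centred on its tested genes. Nrg3, a neuregulin that binds Erbb4, measured 10.69, 10.63 and 10.73 in neurons and 9.34, 9.45 and 9.24 in the co-culture, a fall of 1.34. Inhba, which encodes an activin subunit, fell by 1.14, Bmp6 by 0.70 and Igf1, insulin-like growth factor 1, by 0.68. Mdk, the heparin-binding factor midkine, rose 5.85-fold, from 8.04, 8.34 and 7.87 to 10.59, 10.65 and 10.65. Fgf15, a fibroblast growth factor of the embryonic brain, rose from 7.24, 6.97 and 7.19 to 9.08, 8.96 and 8.94, beside a precursor mean of 8.82. Bdnf and Gdnf were below the filter and were not tested.

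Only 2 genes outside the neuron-high set, Fst and Apcdd1, were above the level predicted at the median share by the test. Of 3637 genes higher in neurons than in precursors by any amount, 3034 were lower in the co-culture, 602 did not pass and 1 was higher, Fst, which encodes follistatin, an inhibitor of activins. Fst measured 8.14, 8.08 and 8.10 in neurons, 8.69, 8.62 and 8.21 in the co-culture and a mean of 7.50 in precursors. Every co-culture array lay above every neuron array, with replicate 3 nearest to them, and the difference was 0.40 (SE 0.11, adjusted p = 0.00858, limma). It was 0.31 to 0.55 without 1 of the co-culture replicates, with adjusted p-values up to 0.036. Fst exceeded the predicted level by 0.84 (adjusted p = 0.0156), which did not pass without co-culture replicate 1 (adjusted p = 0.112) or replicate 2 (adjusted p = 0.1235). Apcdd1, an inhibitor of Wnt signalling, exceeded it by 0.37 (adjusted p = 0.0132), with 8.32, 8.39 and 8.37 in neurons, 8.86, 8.84 and 8.91 in the co-culture and a mean of 8.54 in precursors. Its rise over neurons of 0.51 passed the test without each co-culture replicate in turn (adjusted p up to 7.05e-05), but its departure did not (adjusted p from 0.0975 to 0.112).

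Of 4801 genes with no call between neurons and precursors, 296 were higher and 201 lower in the co-culture, where 4643 and 3236 of all 13012 genes were (35.7% and 24.9%). That count turned with the scaling, since with each array centred on its tested genes it was 40 higher and 896 lower of 4742. The largest rises in this set were Tgfbi and Bgn, matrix proteins of connective tissue, and Igf2, insulin-like growth factor 2. Tgfbi measured 7.33, 6.91 and 7.27 in neurons and 7.95, 9.15 and 7.74 in the co-culture (difference 1.11, adjusted p = 0.0100, limma). Without co-culture replicate 2 the difference was 0.67 (adjusted p = 0.00176). Bgn measured 8.15, 8.37 and 9.01 in neurons and 9.23, 9.92 and 8.92 in the co-culture, groups that overlap, and its difference of 0.85 (adjusted p = 0.0185) did not pass without that array (0.57, adjusted p = 0.0583). Igf2 measured 7.01, 6.74 and 7.12 in neurons and 7.37, 7.98 and 7.27 in the co-culture. Its difference of 0.58 was 0.36 without replicate 2 (adjusted p = 0.015). Co-culture replicate 2 was the highest in all 3 genes. Of genes with no call between neurons and precursors, 150 were higher and 110 lower without replicate 2, 173 and 102 without replicate 1, and 283 and 237 without replicate 3.

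**Figure D5:**
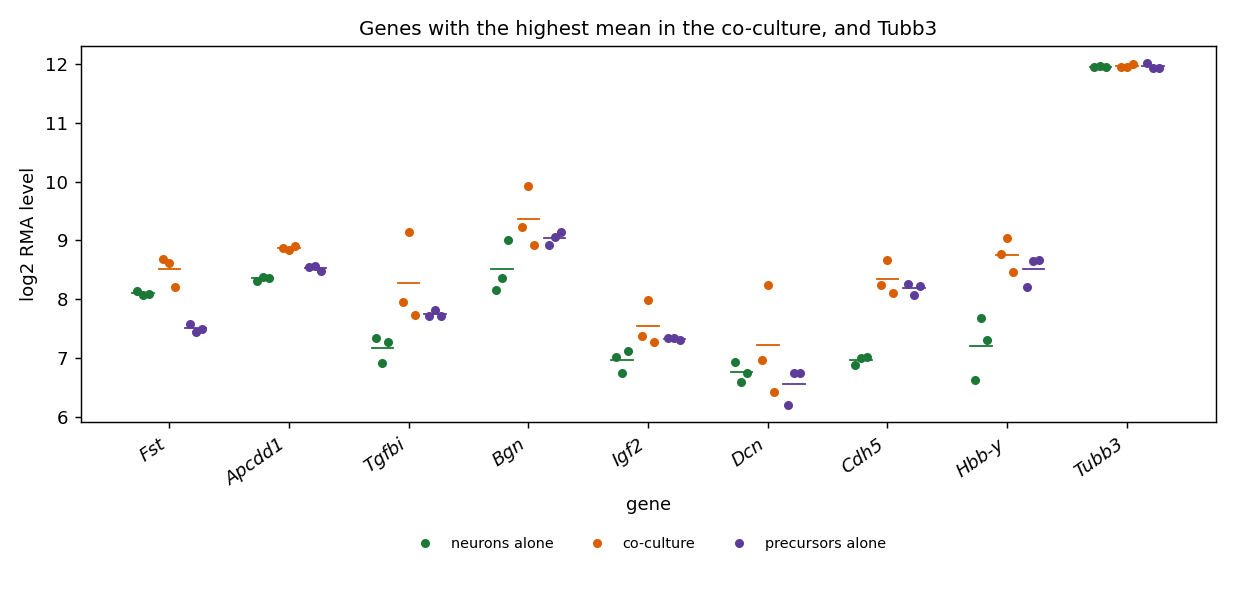
Log2 RMA levels of 8 genes whose mean was highest in the co-culture, and of Tubb3, with 1 point per array and a line at each mean of 3. Of these only Fst and Apcdd1 were above the level predicted at the median share by the test, and co-culture replicate 2, the middle orange point, is the highest for Tgfbi, Bgn, Igf2, Dcn, Cdh5 and Hbb-y.

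Markers of other cell types moved with the comparison to different degrees. Their counts, on short lists, stand beside 35.7% higher and 24.9% lower over all tested genes. Of 10 microglia and macrophage genes 5 were higher and 1 lower (median 0.28), and the linear levels of all 16 genes of the list summed to 1943 to 2115 in neurons, 3670 to 3899 in precursors and 3449 to 3655 in the co-culture. Ccl3 made up most of that difference, and without it the sums were 1843 to 2017, 2151 to 2349 and 2181 to 2240 in the same order. Ccl3 stood at 6.76, 6.64 and 6.19 in neurons and 10.31, 10.46 and 10.51 in the co-culture. The defining microglia genes Csf1r, P2ry12, Tmem119, Ptprc, Itgam and C1qc were below the filter, and Aif1 fell by 0.42. All 4 tested endothelial genes were higher, with sums over all 8 listed genes of 651 to 697.9 in neurons and 937.4 to 1184 in the co-culture (965.5 to 1020 in precursors), while Cldn5, Tek, Esam and Emcn were below the filter. Cdh5, an adhesion molecule of endothelium, rose from 6.89, 7.0 and 7.02 to 8.24, 8.67 and 8.10.

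Of 8 mural and fibroblast genes 2 were higher and 1, Acta2, was lower (median 0.22), against 1 higher and 2 lower with each array centred on its tested genes, and Dcn, a matrix protein, measured 6.97, 8.25 and 6.42 in the co-culture. The Dcn difference of 0.46 did not pass (adjusted p = 0.325, limma) and was -0.060 without co-culture replicate 2. Here and below, sums are over all genes of a list on the array, tested or not. Those of this list were 2471 to 2659 in neurons, 1911 to 2039 in precursors and 2027 to 2611 in the co-culture. Of 3 astrocyte genes 1 was higher, Aldoc, and 1 lower, with sums of 1060 to 1232, 2096 to 2323 and 2084 to 2198 in the same order. Radial precursors also express Aldoc, and Gfap, Aqp4, S100b and Gjb6 were below the filter. One of 4 oligodendrocyte lineage genes was higher (Olig2, 0.38; sums 836 to 872.9, 784.7 to 894.1 and 875.9 to 939.5), while Sox10 and Pdgfra were below the filter. Hbb-y, an embryonic globin and the one erythroid gene tested, rose by 1.55 (sums with Hba-x 155.4 to 259.7, 362.2 to 501.9 and 435.4 to 658.3). One of 3 ganglionic eminence genes was higher (Isl1, 0.85; sums 474.9 to 528.4, 679.6 to 870.6 and 610.6 to 846.7), and so was 1 of 2 choroid plexus genes (Otx2, 0.85; sums 381.2 to 416.6, 421 to 481.4 and 427.6 to 464.8). The part of these cells in the other differences was not tested.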

How the data were processed

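RNA was measured on 9 mouse arrays, 3 each of neurons, precursors and co-culture. The values the authors deposited are on the log2 scale. Per the submitters' processing notes they come from RMA (R package oligo, version not given). Arrays have no read depth, so their number limits the precision. The platform annotation gave 1 gene symbol to 23521 of 41345 probe sets, several to 1814 and none to 16010. Only the first were used, with the probe set of highest mean for each gene. Genes above the array median in at least 3 arrays were tested, 13012 in all.

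All 3 groups entered a single fit with limma 3.58.1 under R 4.3.3. Tests were two-sided, with Benjamini-Hochberg adjustment over all tested genes and a threshold of 0.05. The predicted level mixed the mean neuron and precursor levels on the linear scale at the median share, whose own error is not in the test. The fits were tested on simulated data. Alternatives changed the filter, scaling, replicate block, array weights, prior, samples in the fit, probe set rule, fold and each array.

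Named genes were the 10 largest rises and falls, the highest and lowest shares, those off the prediction, up to 5 members per list and some preset markers. Other genes named, among them most with the highest shares and those without a neuron-precursor call, were chosen after their values were seen. Members and lists were chosen with earlier results of these data known.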

Additional observations from a re-analysis of the deposited data

How the results depend on the processing

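Under every alternative run, at most 2 of the genes then neuron-high were not lower in the co-culture, and all genes then neuron-low were higher. With 4-fold in place of 2-fold the counts were 105 lower and 109 higher. With each array centred on its tested genes 4925 genes were lower than in neurons and the median share was 18.2%; after cyclic loess the share was 21.3%. The number of neuron-high genes above the predicted level was the least stable result: 7 as reported, 4 without a filter, 11 with array weights, 0 with the spread of the separate cultures, and 0 to 8 when each array was left out in turn. The number below was 1 with the filter at the 75th percentile, with array weights and with the replicate block. The cause of these changes was not tested.

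Deviations of same-numbered neuron and co-culture arrays correlated at -0.0051, 0.27 and 0.17. Arrays of different numbers were not compared in this way, so these values cannot decide whether the replicate numbers pair the cultures. With the replicate block 4696 genes were higher, 3362 lower, and 2 neuron-high genes above the predicted level.

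Of the single genes named, 5 changed sign under some setting, and none passed the test with its sign changed: Reln (-0.011) and Tubb3 (-0.10) with each array centred on its tested genes; Tubb3 after cyclic loess (-0.072); and Aldh1l1 with array weights (0.0044). Leaving out each array in turn gave -0.0086 to 0.0206 for Tubb3, -0.060 to 0.85 for Dcn (negative without co-culture replicate 2), -0.057 to 0.011 for Aldh1l1 and -0.059 to 0.0082 for Mbp.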
